A study of Mus musculus with 6 samples.

Results

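The Notch pathway genes described here are 10 genes of the pathway, taken from a table of 24422 genes. They were chosen by symbol for their roles, with earlier results of these data known. They are 3 receptors (Notch1, Notch2, Notch3), 4 ligands (Jag1, Jag2, Dll1, Dll4) and 3 target genes (Hes1, Hey1, Heyl). All 10 were counted in every library, with 38 to 2521 reads per gene and library, and all 10 had an adjusted p.

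RNA of whole mouse kidneys was counted per gene at postnatal day 13. There were 3 Control kidneys, labelled wild type, and 3 TfR1 knockout kidneys, labelled Tfr1f/f;SixCre, in which the transferrin receptor gene was floxed and Six2Cre was the recombinase. Both groups were C57BL/6 on a diet with 220 ppm iron, and sex was not given per sample. Six2Cre is active in the progenitors of the nephron, so the collecting duct, vessels, stroma and blood cells keep the gene, and the study describes tubule cells that escaped deletion. In a whole kidney, fewer cells of a type and less RNA per cell cannot be told apart.

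Notch receptors are cut when a ligand on a neighbouring cell binds them, and the freed inner domain enters the nucleus and joins the DNA-binding protein Rbpj to switch on targets such as the Hes and Hey repressors. In the developing kidney the pathway acts in the patterning of the nephron, above all through Notch2 and Jag1, and in the choice between principal and intercalated cells of the collecting duct. Notch1 and Notch4 with the ligand Dll4 are best known in endothelium, and Notch3 in the smooth muscle cells and pericytes that wrap small vessels.

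Notch3 and Jag2 were higher in TfR1 knockout kidneys, by 1.53-fold and 1.51-fold, and none of the other 8 genes passed the test. That is 2 of 10 higher and 0 of 10 lower, where 7.76% of the 16468 genes tested were called higher, 7.2% lower and 15% either way (DESeq2 Wald test on the raw counts, adjusted p under 0.05 by Benjamini-Hochberg over all genes). Neither call was made by edgeR, which called 0 of 10 members and 6.02% of its genes (3.22% higher and 2.8% lower), or by limma-voom, which called 0 of 10 and 6.15%, although 2 members had an unadjusted p under 0.05 in each of the 3 tools, against 27.3% of all genes in DESeq2. At 2-fold or more 0 members were called, against 8.88% of all genes. The median log2 fold change of the 10 genes was -0.068, from -0.58 to 0.62, beside 0.0071 over all genes tested, and 4 were positive and 6 negative. The target genes Hes1, Hey1 and Heyl were all among those not called.

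The upstream sequences of both genes that rose are shown first, since they were compared with the letters that Rbpj is known to bind. The RefSeq promoter table (GRCm38.p6) was placed on mm9 by exact match of the 250 bases before each start, and 7 of the 10 members had such a window, Hes1, Hey1 and Heyl being without an entry. The sequences are written 5′ to 3′ along the gene's own strand, with capitals on GGGCGG in either direction for Notch3 (mm9 chr17:32303836-32304085, minus strand) and Jag2 (mm9 chr12:114167707-114167956, minus strand).
Notch3: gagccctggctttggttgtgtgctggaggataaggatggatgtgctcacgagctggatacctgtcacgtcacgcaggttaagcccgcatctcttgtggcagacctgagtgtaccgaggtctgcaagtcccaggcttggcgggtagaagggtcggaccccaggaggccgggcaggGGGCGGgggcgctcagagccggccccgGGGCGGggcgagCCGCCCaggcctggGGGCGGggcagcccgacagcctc
Jag2: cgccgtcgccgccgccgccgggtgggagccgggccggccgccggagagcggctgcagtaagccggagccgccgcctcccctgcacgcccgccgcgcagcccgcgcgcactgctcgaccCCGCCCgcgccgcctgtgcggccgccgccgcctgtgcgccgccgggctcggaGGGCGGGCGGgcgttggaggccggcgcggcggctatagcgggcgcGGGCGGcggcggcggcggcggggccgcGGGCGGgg
The window of Hes5, a Notch target outside the 10 genes, is shown as an example that holds the Rbpj letters TGGGAA, in capitals in either direction (mm9 chr4:154334782-154335031, plus strand).
Hes5: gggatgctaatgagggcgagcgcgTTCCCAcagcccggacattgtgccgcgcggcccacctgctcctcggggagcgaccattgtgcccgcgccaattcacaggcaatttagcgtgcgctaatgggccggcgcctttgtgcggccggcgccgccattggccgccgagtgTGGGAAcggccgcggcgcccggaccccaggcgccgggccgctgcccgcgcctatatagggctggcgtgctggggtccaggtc
TGGGAA on either strand was in 0 of the 7 members' windows, against 21.6% of 32851 windows of 27025 genes, and the longer GTGGGAA, which contains it, was in 5.42%. These 7 members are receptors and ligands, not the target genes, and so few windows cannot show that sites are lacking. The Hes5 window held TGGGAA in both directions, 226 and 82 bases before the start, and the Hey2 window held it 207 bases before the start, while the windows of the target Nrarp and of Notch4 held none. GGGCGG, a GC-box motif searched after the values were seen, was in 5 of 8 windows of the members (Dll1 has 2 windows), belonging to Notch1, Notch2, Notch3, Jag2 and Dll4, against 32.7% of all windows. The members' windows were 56.0% to 87.2% G and C, with Jag2 at 87.2% and Notch3 at 68.8%. GGGCGG is made of these letters only, and the background was not matched for their share, so no enrichment can be read from it. These are matches of letters only.

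The receptors came first. Values are normalized counts (raw counts divided by DESeq2's median-ratio size factor), means are given ± SD with n = 3 per group, and fold changes are TfR1 knockout against Control. Notch3 (mm9 chromosome 17, 32257765 to 32303825, minus strand) had 1257, 1321 and 1369 in the Control kidneys and 2041, 1625 and 2385 in the knockout kidneys, in the order of their replicate numbers, which is kept throughout. Every knockout kidney was above every Control kidney, and the Control values lay close together. The means were 1316 ± 56.1 and 2017 ± 381, a log2 fold change of 0.62 (SE 0.20, 95% interval 0.23 to 1.00, DESeq2 adjusted p 0.0166). The edgeR quasi-likelihood test gave 0.60 with an adjusted p of 0.0733, and limma-voom an adjusted p of 0.0816. With total-count size factors in DESeq2 the adjusted p was 0.131. Exons of Notch3 overlap 488 bases of Gm17276 on the other strand, and whether counting used strand is not stated in the sources used here, so reads of the pair cannot be told apart.

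Notch1 (chromosome 2, 26313423 to 26372183, minus strand) had 1168, 1101 and 1544 in Control kidneys and 1726, 1100.3 and 1839 in TfR1 knockout kidneys. The groups overlapped: the lowest of all 6 values belonged to a knockout kidney and so did the highest. The log2 fold change was 0.29 (SE 0.26, 95% interval -0.22 to 0.81, DESeq2 adjusted p 0.5), so a rise of the size seen in Notch3 lies within its interval. Notch1 exons share 1068 bases with 0610009E02Rik and 414 with Gm13568 on the other strand. Notch2 (chromosome 3, 97817461 to 97954290), the receptor best known in nephron formation, had 1460.2, 1555 and 1731 in Control kidneys and 1451, 801 and 1305 in knockout kidneys. All 3 knockout values were below the Control values, the nearest pair being 1451 and 1460.2. The log2 fold change was -0.42 (SE 0.26, 95% interval -0.92 to 0.090, DESeq2 adjusted p 0.296), which did not pass the threshold.

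**Figure D1:**
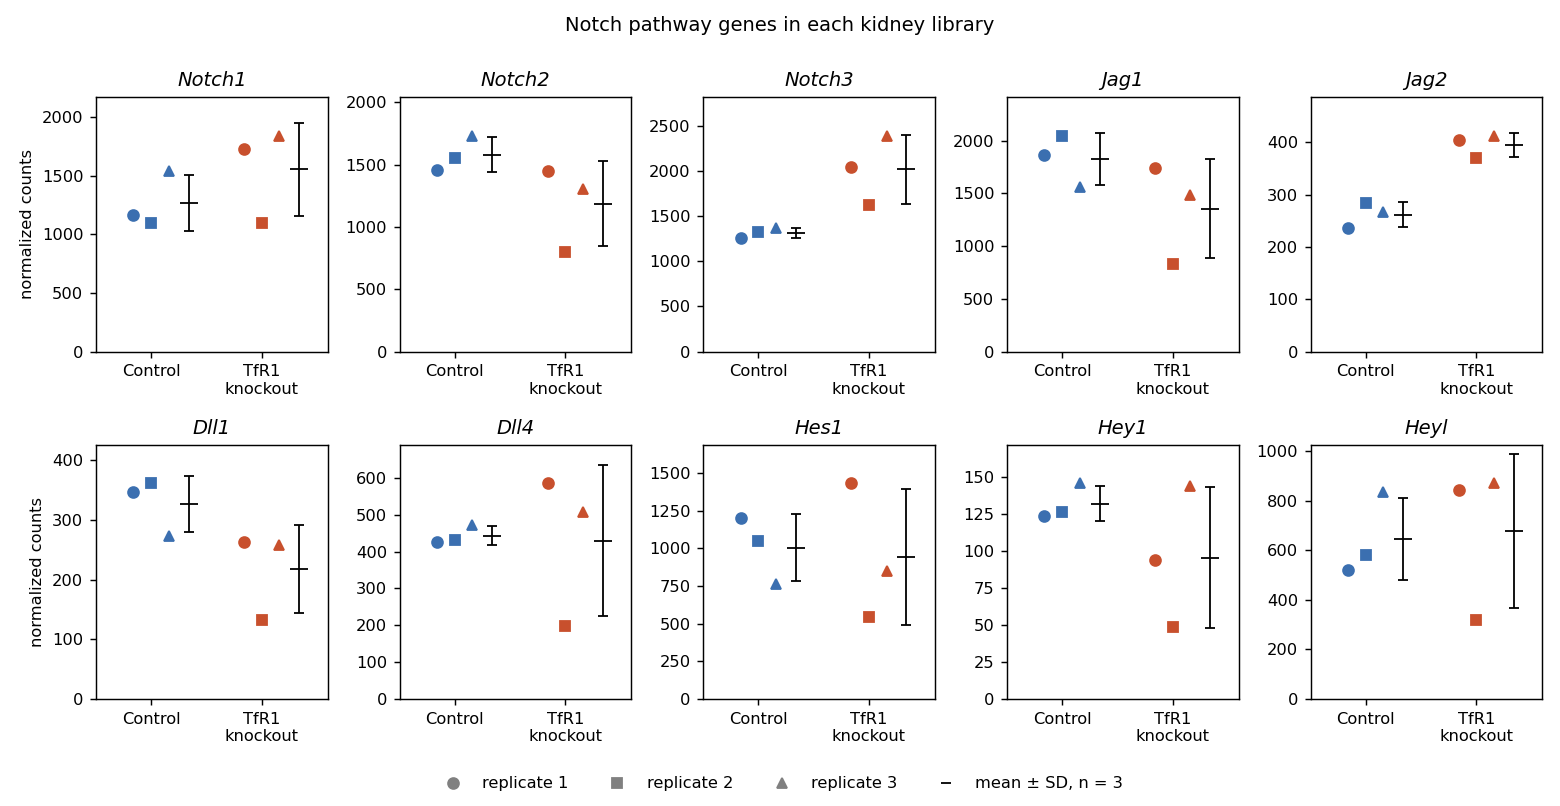
Normalized counts (vertical axes, each from 0) of the 10 Notch pathway genes in the 3 Control (blue) and 3 TfR1 knockout (red) libraries, with marker shapes for replicate numbers and the mean ± SD in black. The red points lie above all blue ones for Notch3 and Jag2 and below them for Notch2 and Dll1, and the red square, TfR1 knockout replicate 2, is the lowest red point in all 10 panels.

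Among the ligands, Jag2 (chromosome 12, 114146801 to 114167706, minus strand) differed between groups with the least scatter. It had 236, 284 and 267 normalized counts in Control kidneys and 405, 369.7 and 412 in TfR1 knockout kidneys. The groups did not overlap, and their means of 262 ± 24.3 and 396 ± 22.8 gave a log2 fold change of 0.60 (SE 0.18, 95% interval 0.24 to 0.95, DESeq2 adjusted p 0.0120). In edgeR the log2 fold change was 0.58 with an adjusted p of 0.0836, and limma-voom gave an adjusted p of 0.0741. With total-count size factors in DESeq2 the adjusted p was 0.0878.

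Jag1 (chromosome 2, 136907192 to 136942380, minus strand), the ligand paired with Notch2 in nephron patterning, had 1865, 2044.2 and 1556 in Control kidneys and 1741, 833 and 1488 in knockout kidneys. Its groups overlapped, and the log2 fold change of -0.43 (SE 0.30, 95% interval -1.01 to 0.15) did not pass the test (DESeq2 adjusted p 0.359). Dll1 (chromosome 17, 15504318 to 15513836, minus strand), a Delta-like ligand, had 346, 361 and 272 in Control kidneys and 263, 133 and 258 in knockout kidneys. All knockout values were below the Control values, by a log2 fold change of -0.58 (SE 0.31, 95% interval -1.20 to 0.036, DESeq2 adjusted p 0.216). Dll1 shares 867 exon bases with A930024N18Rik on the other strand. Dll4 (chromosome 2, 119151520 to 119161698), the endothelial ligand, had 425, 432 and 473 in Control kidneys and 585, 198 and 507 in knockout kidneys. The knockout kidneys held both the lowest and the 2 highest values, and the log2 fold change was -0.042 (SE 0.38, 95% interval -0.79 to 0.70, DESeq2 adjusted p 0.960). Dll4 shares 214 exon bases with Gm14207 on the other strand.

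The 3 target genes did not pass the test in either direction. Hes1 (chromosome 16, 30064470 to 30067882), a repressor switched on by Notch and by other signals, had 1199, 1052 and 765 in Control kidneys and 1430.0, 546 and 848 in TfR1 knockout kidneys. Its groups overlapped widely (log2 fold change -0.095, SE 0.36, 95% interval -0.81 to 0.62, DESeq2 adjusted p 0.901). Hey1 (chromosome 3, 8663362 to 8667039, minus strand), a repressor known in vessels, had 124, 126 and 145 in Control kidneys and 93.5, 48.6 and 144 in knockout kidneys. Its log2 fold change was -0.46 (SE 0.41, 95% interval -1.25 to 0.33, DESeq2 adjusted p 0.490). Heyl (chromosome 4, 122910799 to 122927118), the family member known in vascular smooth muscle, had 521, 579.9 and 835 in Control kidneys and 844, 319 and 869 in knockout kidneys. Its log2 fold change was 0.071 (SE 0.39, 95% interval -0.70 to 0.84, DESeq2 adjusted p 0.933), and -0.0044 with total-count size factors. The intervals of all 3 targets reached to 0.33 or more above 0 and to -0.70 or further below it, so changes within them were not excluded with 3 libraries a group.

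**Figure D2:**
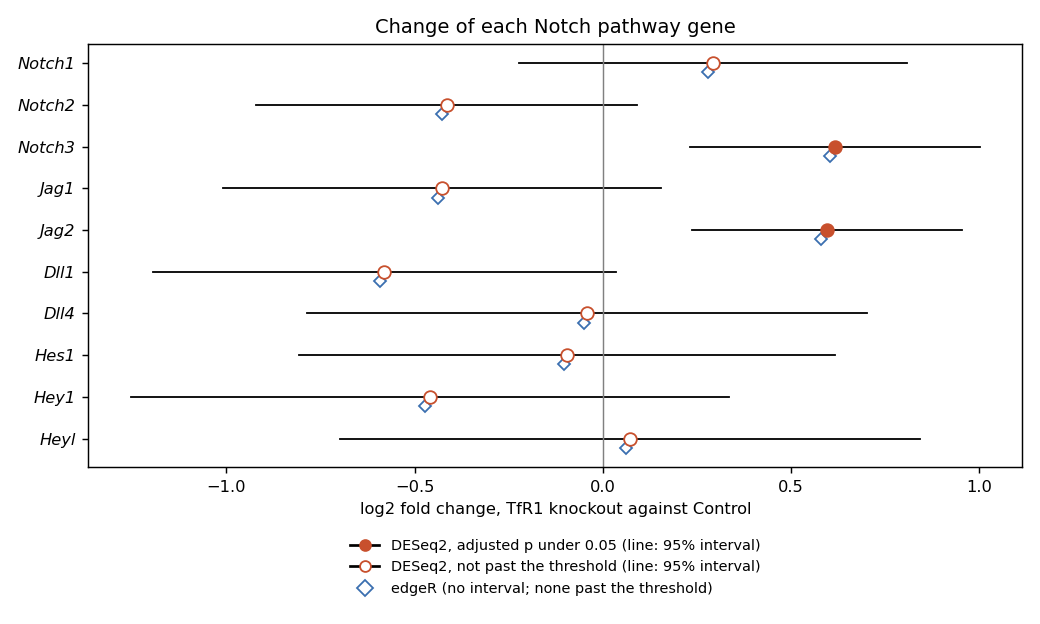
Log2 fold change of each gene, TfR1 knockout against Control, by DESeq2 (circles, with 95% interval as a line; filled at an adjusted p under 0.05) and by edgeR (diamonds, no interval). The filled circles are Notch3 at 0.62 and Jag2 at 0.60, and the lines of the other 8 genes cross 0.

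The groups did not overlap for 4 of the 10 genes, 2 higher (Notch3, Jag2) and 2 lower (Notch2, Dll1), where 16.9% of all tested genes were apart in each direction and 33.7% in either. That share is near the background.

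Relative levels were compared per kb of transcript. In Control kidneys Hes1 was highest at 685 ± 150.2 normalized counts per kb and Jag1 next at 325 ± 44.0, and neither overlapped the gene below it. Notch3 (164 ± 6.97), Notch2 (151 ± 13.1), Heyl (142 ± 36.8), Notch1 (134 ± 25.2) and Dll4 (118 ± 6.82) followed, and each overlapped its neighbours in this order over the 3 libraries. Dll1 (91.2 ± 13.3) was below Dll4 without overlap, and Jag2 (64.7 ± 5.98) and Hey1 (59.8 ± 5.36) were lowest and overlapped each other. In TfR1 knockout kidneys Hes1 again led, at 641 ± 306 per kb, and Notch3 stood next at 251 ± 47.3, overlapping Jag1 at 241 ± 83.5. Notch2 was at 113 ± 32.5 per kb, and Jag2, at 97.6 ± 5.61, was above Dll1 at 60.9 ± 20.5 without overlap.

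Ratios of raw counts within a library do not depend on how libraries are scaled. The 7 ratios below were chosen after the values were seen and are descriptions. Notch3 to Notch2 was 0.861, 0.849 and 0.791 in Control kidneys and 1.41, 2.03 and 1.83 in TfR1 knockout kidneys. Notch1 to Notch2 was 0.8, 0.708 and 0.892 in Control kidneys and 1.19, 1.37 and 1.41 in knockout kidneys. Jag2 to Jag1 was 0.126, 0.139 and 0.172 in Control kidneys and 0.232, 0.444 and 0.277 in knockout kidneys. Each of these ratios was higher in every knockout kidney than in every Control kidney, and none was tested. For Notch3 to Notch2 this follows from the single-gene values, Notch3 being higher and Notch2 lower without overlap. It adds no support to either gene. Jag2 to Jag1 likewise reuses Jag2, a gene already called. The share of all gene pairs that lie apart in this way was not computed. The groups overlapped for Notch3 to Notch1, Dll4 to Dll1, Heyl to Hes1 and Hey1 to Hes1.

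**Figure D3:**
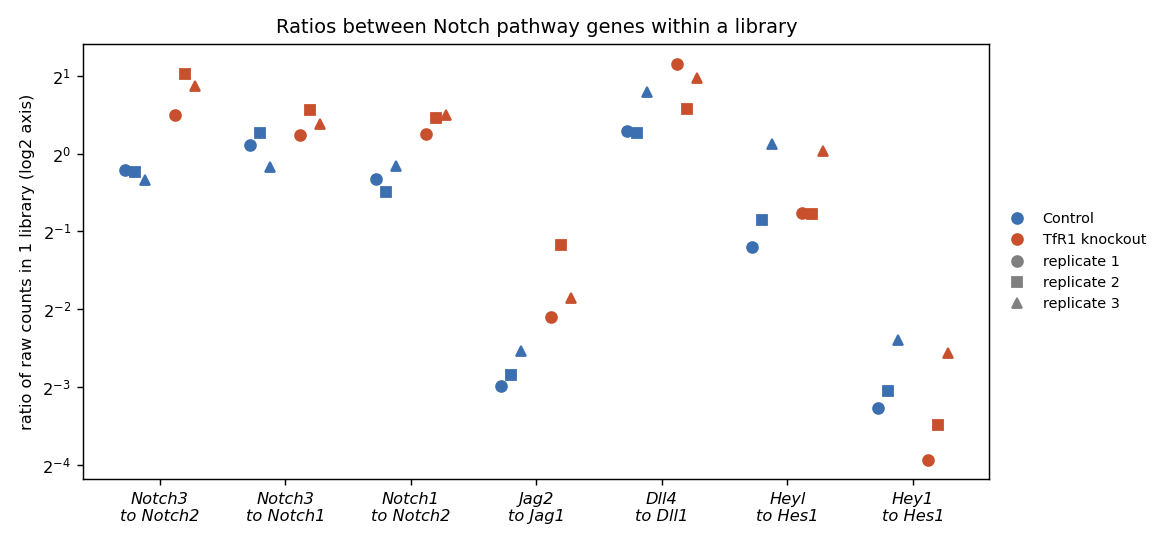
Ratios of raw counts of 2 genes within a library (vertical axis, log2 scale) in Control (blue) and TfR1 knockout (red) kidneys, with marker shapes for replicates. Notch3 to Notch2 spans 0.791 to 0.861 in Control and 1.41 to 2.03 in knockout kidneys, and the groups overlap in 4 of the 7 ratios.

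TfR1 knockout replicate 2 stood apart in these genes, though not in them alone. It had the lowest value of the 3 knockout kidneys in 10 of 10 members, which held for 40.3% of all tested genes, and the lowest of all 6 libraries in 8 of 10, against 28.0% of all. In the 50 other pathway genes tested these counts were 22 and 12, near the shares of all genes. Among the cell type markers listed below it was lowest of the knockout kidneys in 6 of 6 for proliferation and 8 of 10 for macrophages. The same held in 7 of 9 for smooth muscle and pericytes, 6 of 8 for stroma, 5 of 7 for podocytes and 5 of 7 for nephron progenitors and developing nephrons. It held in 4 of 9 for tubule injury, 3 of 7 for intercalated cells and 2 of 7 for principal cells. For proximal tubule it was 1 of 8 and for thick ascending limb 0 of 5. The library was lowest of all 6 in 6 of 6 proliferation and 6 of 8 stromal markers, but in 1 of 10 macrophage markers. The 10 genes together had 456, 459 and 502 CPM (counts scaled to equal library totals) in the Control kidneys and 549, 267 and 532 CPM in the knockout kidneys. Its value was between 0.363 (Dll4) and 0.905 (Jag2) times the mean of the other knockout kidneys, with Heyl at 0.372 and Hey1 at 0.410. It was nearest to the other knockout kidneys in Jag2 and then in Notch3 (0.734), the genes that were called. The test uses this same spread within the group, so the match adds no support to the calls.

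Without that library the 2 members called were Notch3, at a log2 fold change of 0.75 (DESeq2 adjusted p 1.94e-04), and Jag2, at 0.65 (DESeq2 adjusted p 0.0207). The median of the 10 genes moved from -0.068 to 0.24, with 6 positive and 4 negative. Dll4 moved from -0.042 to 0.30 and Hes1 from -0.095 to 0.18, and neither was called. Notch1 was at 0.49 (DESeq2 adjusted p 0.143), Heyl at 0.41, Dll1 at -0.32, Notch2 at -0.19, Jag1 at -0.17 and Hey1 at -0.14. Notch3 and Jag2 both lost the call without Control replicate 1 or 2 or TfR1 knockout replicate 1 or 3. In those fits the DESeq2 adjusted p of Notch3 was 0.175, 0.131, 0.0505 and 0.152, and that of Jag2 was 0.209, 0.0816, 0.0532 and 0.135. Their log2 fold changes stayed between 0.48 and 0.75 and between 0.52 and 0.65 whichever single library was left out.

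**Figure D4:**
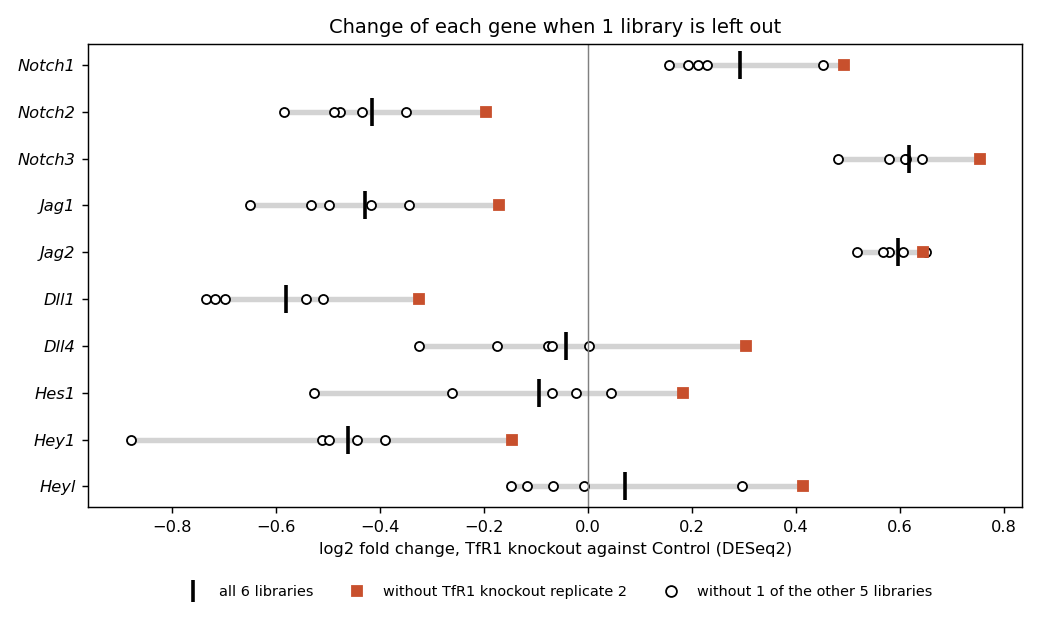
Log2 fold change of each gene by DESeq2 with all 6 libraries (black bar), without TfR1 knockout replicate 2 (red square) and without each of the other 5 libraries (open circles). The fold changes of Dll4, Hes1 and Heyl lie on both sides of 0, and those of the other 7 genes keep their sign.

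The other genes of the pathway were 53 in number, of which 50 had an adjusted p. Of these 1 was higher and 1 lower, below the shares of all genes given above, and the median log2 fold change was 0.11. Hdac1, a histone deacetylase of the corepressor complexes that Rbpj joins in the absence of Notch, had 2010.2, 2166 and 2231 normalized counts in Control kidneys and 1538, 1314 and 1444 in TfR1 knockout kidneys. It fell without overlap, by 0.58 on the log2 scale (SE 0.15, DESeq2 adjusted p 0.00155), and passed in edgeR (adjusted p 0.0384) and limma-voom (adjusted p 0.0406) as well. It lost the call without Control replicate 2 (DESeq2 adjusted p 0.0640). Hdac1 acts in many complexes besides those of Notch. Ncor1, a corepressor that recruits histone deacetylases, had 3270.0, 3345 and 3009 in Control kidneys and 3871, 5737 and 4375 in knockout kidneys, a log2 fold change of 0.54 (SE 0.20, DESeq2 adjusted p 0.0490). It did not pass in edgeR (adjusted p 0.112) or limma-voom (adjusted p 0.113), or with upper-quartile size factors (DESeq2 adjusted p 0.0523). It kept the call in 1 of the 6 fits that left out a library, the one without TfR1 knockout replicate 1 (0.66, DESeq2 adjusted p 0.0106). In the other 5 the DESeq2 adjusted p was between 0.132 and 0.219, and the log2 fold change was lowest, at 0.37, without TfR1 knockout replicate 2, its highest library.

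Rbpj itself had a log2 fold change of 0.08 (SE 0.16, 95% interval -0.23 to 0.38, DESeq2 adjusted p 0.8), and -0.037 with total-count size factors. Notch4, the remaining receptor, was at 0.28 (SE 0.20, DESeq2 adjusted p 0.384), and the target Hey2 at 0.27 (SE 0.26, DESeq2 adjusted p 0.525). Nrarp, a target that dampens the pathway, was at -0.41 (SE 0.43, DESeq2 adjusted p 0.580), with TfR1 knockout replicate 2 at 120.3 normalized counts and the other 5 libraries between 372 and 466. Without that library Nrarp was at -0.021, and without TfR1 knockout replicate 1 at -0.77. Dll3 and Hes5 had too few reads for an adjusted p.

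The 5 glycosyltransferases that put sugars on the receptors all had negative log2 fold changes, with a median of -0.61, and the 4 ubiquitin ligases that act on ligands all had positive ones, with a median of 0.51. None of these 9 genes passed the DESeq2 test with all 6 libraries and no block. With the replicate number as a block only the glycosyltransferase Lfng passed (-0.84, DESeq2 adjusted p 0.0271). Rfng passed without Control replicate 3 (-0.92, DESeq2 adjusted p 0.00963), Pofut1 without TfR1 knockout replicate 1 (-0.84, DESeq2 adjusted p 0.0257) and Neurl1a without TfR1 knockout replicate 2 (0.98, DESeq2 adjusted p 0.0319). None of these genes passed when any other single library was left out. Over all genes 2336, 3205 and 1791 were called in these fits. Lfng (Lunatic fringe) had 419, 389.9 and 659 normalized counts in Control kidneys and 307, 154 and 394 in knockout kidneys, a log2 fold change of -0.78 (SE 0.38, DESeq2 adjusted p 0.162), and was at -0.47 without TfR1 knockout replicate 2 and -0.51 without Control replicate 3. Mib1, the ligase needed for ligand signalling, had 433, 398 and 447 in Control kidneys and 549, 1029.9 and 511 in knockout kidneys, at 0.71 (SE 0.31, DESeq2 adjusted p 0.103). Its groups did not overlap, and TfR1 knockout replicate 2 was the highest library here. Without it Mib1 was at 0.32 (DESeq2 adjusted p 0.308). The 10 receptor proteases, among them the parts of gamma-secretase, had a median of 0.10 with 0 called.

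**Figure D5:**
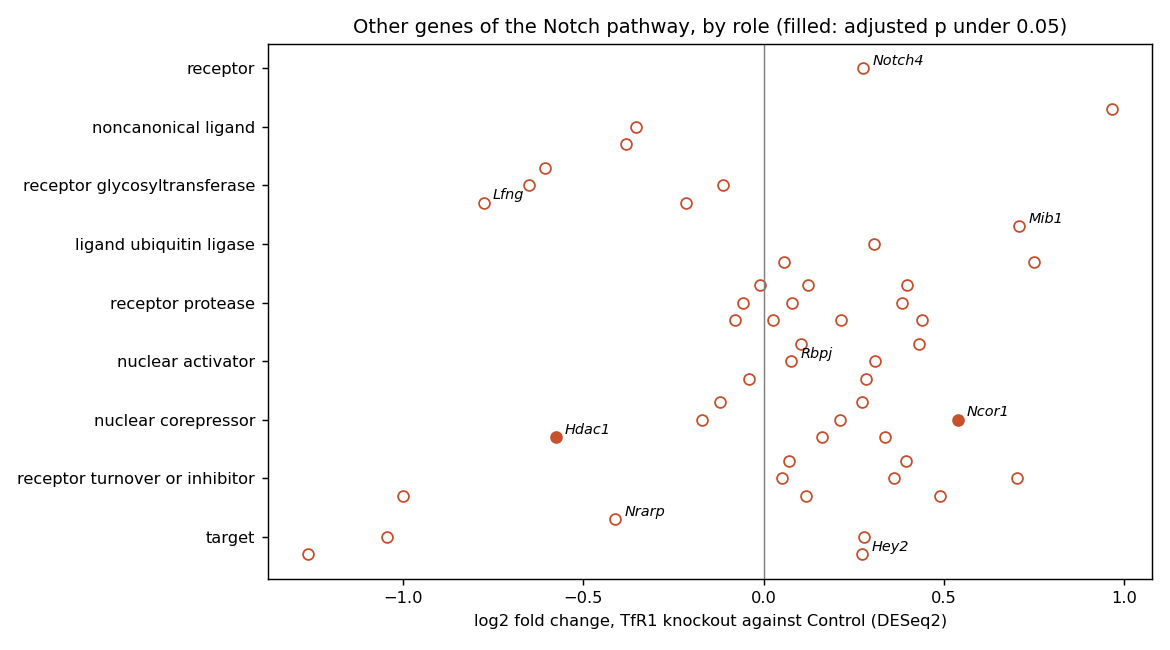
Log2 fold change (horizontal axis, DESeq2, TfR1 knockout against Control) of the 50 other Notch pathway genes with an adjusted p, by role, with filled circles at an adjusted p under 0.05. Hdac1 at -0.58 and Ncor1 at 0.54 are filled, the 5 glycosyltransferases lie left of 0 and the 4 ubiquitin ligases right of it.

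Cell type markers moved between the same groups, and their part in the results above was not tested. Of 12 endothelial markers 1 was higher and 0 lower, with a summed level of 30714 to 47637 normalized counts in Control and 32788 to 41985 in TfR1 knockout kidneys. Of the vascular smooth muscle and pericyte markers 9 of 10 had an adjusted p, 0 were higher and 1 (Cnn1) lower, with sums of 21224 to 36743 and 22552 to 28702, and Ren1 had at most 3 counts in every library. The summed markers of smooth muscle and pericytes, the vessel cells in which Notch3 is best known, overlapped between groups. Such sums are weighted to the most abundant markers and do not measure the number of these cells. In TfR1 knockout replicate 2, the library lowest in Dll4, Heyl and Hey1, the endothelial sum was 39741 and lay between those of the other knockout kidneys, while the smooth muscle and pericyte sum of 22552 was the lowest of the 3. Single markers varied within the lists. That library was the lowest of the knockout kidneys in 5 of 12 endothelial and 7 of 9 smooth muscle and pericyte markers.

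Of 8 stromal markers 3 were lower and 0 higher (sums 80139 to 161088 in Control and 38500 to 78528 in knockout kidneys, lowest in TfR1 knockout replicate 2). Of 7 principal cell markers 4 were higher (10043 to 20046 against 37742 to 65253), and of 7 intercalated cell markers 1 was higher and 3 lower (10177 to 15721 against 10541 to 11399). Of 10 macrophage markers 6 were higher (2396 to 4073 against 6177 to 7779), and of 9 tubule injury markers 7 were higher (36945 to 41265 against 93961 to 149184). Of 7 markers of nephron progenitors and developing nephrons 1 was higher and 2 lower (1178 to 1476 against 649.9 to 886). Of 6 proliferation markers 5 were lower (7036 to 8900 against 2611 to 4412). Of 8 proximal tubule markers 3 were lower and 1 higher (107272 to 275331 against 47583 to 76083), of 5 thick ascending limb markers 4 were lower (45941 to 93793 against 13387 to 25209), and of 7 podocyte markers 1 was higher (11288 to 17485 against 16413 to 19616). Markers of kidney epithelium were thus present in every library, and none of these lists apart from the smooth muscle and pericyte list held a marker with at most 3 counts throughout.

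Total counts ran from 16591156 to 22898008 per library. Tfrc, the targeted gene, had 5534, 6485 and 3667 normalized counts in Control kidneys and 6976, 4045 and 5898 in TfR1 knockout kidneys, so its count did not tell the groups apart and does not check the labels (log2 fold change 0.11, DESeq2 adjusted p 0.852). Control replicate 3 differed from the other Control kidneys in several marker sums, with proximal tubule markers at 107272 against 254417 and 275331. Genes of different GC content were shifted against each other by library: from the lowest to the highest of 10 equal bins of genes by GC, the median log2 deviation changed by -0.28 in TfR1 knockout replicate 2, 0.26 in TfR1 knockout replicate 1, -0.21 in Control replicate 3 and 0.058 to 0.095 in the other 3. After correction for this trend, chosen after seeing the data, Notch3 was at 0.58 (DESeq2 adjusted p 0.0142) and Jag2 at 0.57 (DESeq2 adjusted p 0.0173).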

How the data were processed

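Poly-A RNA of 6 kidneys was sequenced single-end. The authors trimmed the reads with Trimmomatic, aligned them to mm9 with TopHat2 2.0.11, counted them per gene with HTSeq and deposited raw counts with no normalization. CASAVA 1.8.2 is also in the submitters' notes. Groups came from the sample labels, which number the kidneys of each group, and the study gives 3 mice per model. Control replicates 1 and 2 differed least among pairs within a group. Their chi-square per degree of freedom was 10.6, against 37.9 to 103 in the other pairs. The cause was not tested. The p-values measure the spread between these samples.

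The members, the 53 other pathway genes and the 12 marker lists were chosen with earlier results of these data known. Named genes were the members, Tfrc, each other pathway gene called, and Notch4, Dll3, Hes5, Hey2, Rbpj, Lfng, Nrarp and Mib1. As in the study, DESeq2 was the tool (1.42.0, R 4.3.3, Wald test, median-ratio size factors, Benjamini-Hochberg adjustment, no covariate). Independent filtering was tuned at 0.05, which left 16468 of 19985 genes with at least 1 read, the lowest tested mean being 3.62 normalized counts. Alternatives were edgeR 4.0.16 (quasi-likelihood, TMM), limma-voom (limma 3.58.1), other filters and size factors, a 2-fold threshold, the replicate number as a block, leaving out each library and, chosen after seeing the data, a GC correction. Positions and lengths came from the GENCODE annotation of mm9, and upstream sequences from RefSeq. Total counts were 16591156 to 22898008 per library, and counting error weighs more in genes with few reads. The code was tested on simulated data.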

Additional observations from a re-analysis of the deposited data

How the results depend on the processing

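Of the 10 members DESeq2 called 2, both higher. The count was 0 in edgeR, in limma-voom, with total-count size factors and at a 2-fold threshold, and ran from 0 to 2 when 1 library was left out. Total-count size factors moved the median of all genes to -0.098, and relative to that median Notch3 was at 0.62 and Jag2 at 0.59, beside 0.61 and 0.59 with the size factors used. They put Heyl at -0.0044 and Rbpj at -0.037, the reverse of the sign given above. Replicate numbers were not taken as pairs. The deviations of same-numbered libraries from their group means correlated at 0.0132, 0.0653 and 0.157. Replicate 1 of each group correlated best with number 2 of the other, while numbers 2 and 3 correlated best with their own number. Whether the numbers mark pairs is not settled by these values. With the replicate block 1 member was called (Notch3, DESeq2 adjusted p 0.0460; Jag2 0.135), Heyl was at -0.029, and 2 other pathway genes were lower, Lfng (DESeq2 adjusted p 0.0271) and Hdac1, and 1 higher, Dtx4.

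Of the other pathway genes 2 were called, 1 in each direction. The total was 1 (0 higher) in edgeR, limma-voom, upper-quartile size factors, no filter on low counts and filtering tuned at 0.1, and 0 in each direction at 2-fold. The gene that kept the call in these 5 fits was Hdac1. The lower count was 2 with the GC correction (Hdac1 and Dtx1). Leaving out 1 library gave totals of 0 to 5, with 0 to 3 higher and 0 to 2 lower. It was 5 without TfR1 knockout replicate 1 (Ncor1, Dtx3 and Ncstn higher, Hdac1 and Pofut1 lower) and 0 without Control replicate 2. Single libraries moved Dll4 from -0.33 to 0.30, Hes1 from -0.53 to 0.18, Heyl from -0.15 to 0.41 and Tfrc from -0.095 to 0.30.

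Over all genes 2464 were called, 1278 higher and 1186 lower. The counts were 921 (493 and 428) in edgeR, 941 (485 and 456) in limma-voom and 1463 (728 and 735) at 2-fold. Without 1 library they ran from 1229 (Control replicate 1) to 3205 (TfR1 knockout replicate 1), with 658 to 1531 higher and 571 to 1674 lower. The causes of these moves were not tested, except that a higher threshold calls fewer genes by construction. Both the 3 libraries a group and, for genes with few reads such as Hey1 (38 to 152 per library), the depth limit what could be detected.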

Other observations

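The genes that turn over or hold back Notch receptors were 8 of the other pathway genes (Numb, Numbl, Itch, Dtx1, Dtx2, Dtx3, Dtx4, Fbxw7). None was called by DESeq2 with all 6 libraries and no block or correction, 7 had positive log2 fold changes and 1, Dtx1, a negative one. Dtx4 was called with the replicate block (0.75, DESeq2 adjusted p 0.0220) and Dtx1 with the GC correction (-1.05, DESeq2 adjusted p 0.0360). The genes named next were chosen after their values were seen. Dtx4, a Deltex ubiquitin ligase, had 626, 617 and 1100.1 normalized counts in Control and 1352, 1141 and 1314 in TfR1 knockout kidneys, a log2 fold change of 0.70 (SE 0.28, DESeq2 adjusted p 0.0653). Without Control replicate 3 it was called, at 1.03 (DESeq2 adjusted p 2.28e-07), and it was not called without any other single library. Dtx1, of the same family, had 61.8, 52.7 and 70.0 in Control and 36.8, 20.5 and 34.1 in knockout kidneys, a log2 fold change of -1.0 (SE 0.39, DESeq2 adjusted p 0.0616). Of the fits that left out a library, Dtx3 was called only without TfR1 knockout replicate 1, at 0.66 (DESeq2 adjusted p 0.00178). Fbxw7, the ligase subunit that marks the freed Notch domain for breakdown, had 408, 387 and 407 in Control and 539, 521 and 486 in knockout kidneys, at 0.36 (SE 0.16, DESeq2 adjusted p 0.102). In each of these 4 genes the groups did not overlap. Of the 8 genes 3 were apart with higher and 1 with lower values in knockout kidneys. Of all 50 other pathway genes tested 11 were apart with higher and 3 with lower values, where 16.9% of all tested genes were apart in each direction. Ncstn, a part of gamma-secretase, was also above every Control kidney in every knockout kidney, at 0.44 (SE 0.18, DESeq2 adjusted p 0.0819).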
